A study of Homo sapiens with 6 samples.

Results

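The nuclear genes for the subunits of the oxidative phosphorylation (OXPHOS) complexes were compared between untreated MV4-11 cells and cells given WNK463. Members were chosen by gene symbol (NDUFA, NDUFB, NDUFC, NDUFS, NDUFV, SDHA to SDHD, UQCR, CYC1, COX4 to COX8 and ATP5F, ATP5M and ATP5P names), a rule that uses no measured values, which gave 89 of the 20348 genes in the table. Of these, 37 belong to complex I, 4 to complex II, 10 to complex III, 19 to complex IV and 19 to complex V. *NDUFA4* and *NDUFA4L2*, named for complex I, were counted with complex IV. MV4-11 is an established line of acute myeloid leukemia (AML) cells, and WNK463 is a compound that blocks kinases of the WNK (with-no-lysine) family. RNA was sequenced from 3 untreated samples (Ctrl) and 3 samples that had received WNK463 at 1 μM over 48 h, and the labels name no vehicle for the Ctrl samples. All 6 samples come from this single line, and the labels do not say whether they were separate cultures, so p-values measure the spread between these samples, which may be technical.

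Complexes I to IV pass electrons from NADH and succinate to oxygen in the inner mitochondrial membrane, pumping protons at complexes I, III and IV, and complex V uses the returning protons to make ATP. Each complex except complex II is built from subunits of both genomes: the mitochondrial DNA (mtDNA) encodes a small hydrophobic core, and nuclear genes encode the remaining subunits, which are imported. AML cells are known for their reliance on OXPHOS. NRF1, the GABPA/GABPB factor of the ETS family and YY1 are known activators of many of these nuclear genes.

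Coding and promoter sequences were examined first, because they set which genes can be counted apart and which promoter motifs members share. *UQCRH*, the hinge protein of complex III, lies at chr1:46303631-46316776 (GRCh38, plus strand, 4 exons in the transcript used), and *UQCRHL*, its single-exon copy, at chr1:15807169-15809348 (minus strand). Their coding sequences in GENCODE 29 differ at 4 of 276 bases, shown in capitals, and share a run of 178 identical bases in the transcripts, so reads that lie within that run cannot be assigned to 1 of them.
UQCRH: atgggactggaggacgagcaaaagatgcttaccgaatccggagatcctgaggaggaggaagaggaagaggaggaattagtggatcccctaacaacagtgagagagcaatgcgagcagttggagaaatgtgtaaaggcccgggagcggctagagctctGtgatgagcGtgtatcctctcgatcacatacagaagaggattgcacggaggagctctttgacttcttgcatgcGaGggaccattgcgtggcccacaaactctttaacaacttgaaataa
UQCRHL: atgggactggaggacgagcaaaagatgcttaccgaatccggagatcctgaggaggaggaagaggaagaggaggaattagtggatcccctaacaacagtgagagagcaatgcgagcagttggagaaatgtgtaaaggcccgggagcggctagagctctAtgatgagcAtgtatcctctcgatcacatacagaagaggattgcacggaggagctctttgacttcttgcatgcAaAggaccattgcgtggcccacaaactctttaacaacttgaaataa
The 3 genes for subunit c, of which the rotating ring of complex V is made, share only short runs. The last part of their coding sequences, which encodes the mature subunit, is shown with capitals at positions where the 3 differ. *ATP5MC1* (chr17:48892765-48895871, plus strand) and *ATP5MC2* (chr12:53632726-53677408, minus strand) were 89.0% identical over it, *ATP5MC3* (chr2:175176258-175184607, minus strand) was 81.1% identical to each of them, and no run longer than 17 bases was shared.
ATP5MC1: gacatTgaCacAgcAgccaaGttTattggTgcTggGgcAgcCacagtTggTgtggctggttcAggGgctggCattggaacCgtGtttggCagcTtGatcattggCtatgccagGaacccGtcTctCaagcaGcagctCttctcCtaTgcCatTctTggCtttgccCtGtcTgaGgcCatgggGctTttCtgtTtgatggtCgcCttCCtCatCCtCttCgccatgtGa
ATP5MC2: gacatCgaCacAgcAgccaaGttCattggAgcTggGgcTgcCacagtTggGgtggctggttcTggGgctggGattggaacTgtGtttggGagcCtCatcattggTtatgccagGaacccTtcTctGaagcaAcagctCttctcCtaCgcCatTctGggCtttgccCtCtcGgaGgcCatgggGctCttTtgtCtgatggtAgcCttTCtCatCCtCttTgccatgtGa
ATP5MC3: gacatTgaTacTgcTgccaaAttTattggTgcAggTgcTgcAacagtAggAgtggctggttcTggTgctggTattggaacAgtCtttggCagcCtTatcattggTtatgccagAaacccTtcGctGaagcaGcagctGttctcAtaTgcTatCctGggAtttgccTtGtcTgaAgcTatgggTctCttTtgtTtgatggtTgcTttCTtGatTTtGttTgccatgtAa

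Promoter windows from 250 bases before to 50 bases after the start (RefSeq, GRCh38.p14) were matched for 69 members and searched on both strands for 3 motifs. The NRF1 core GCATGCGC was in the windows of 14 members (20.3%), against 6.71% of the tested genes with a window and 3.05% of all windows. Extended by GC at its 5′ end, a form that overlaps the core, it was in 4 members (5.8%, against 2.81% and 1.24%). The ETS motif CCGGAAG was in 21 members (30.4%, against 23.7% and 10.3%), and the YY1 motif AAGATGGCG was in 9 (13.0%, against 4.92% and 1.75%). Among members called lower with WNK463 in the test described further on, 12 of 42 held the NRF1 core, 16 held the ETS motif and 8 the YY1 motif, and among the 23 other tested members with a window 2, 5 and 1 did. A match is a description of the letters and not a measured binding site. Examples of each motif are shown, with the match in capitals on the strand of the gene.
NDUFA8 (chr9:122159774-122159873, minus strand, -94 to 6 from the start, extended NRF1 motif): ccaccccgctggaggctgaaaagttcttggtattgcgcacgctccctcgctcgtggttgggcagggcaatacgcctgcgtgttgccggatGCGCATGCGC
SDHD (chr11:112086743-112086842, plus strand, -130 to -31, extended NRF1 motif and ETS motif on the opposite strand): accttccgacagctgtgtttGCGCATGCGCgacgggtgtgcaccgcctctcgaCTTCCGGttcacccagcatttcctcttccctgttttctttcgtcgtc
COX8A (chr11:63974520-63974619, plus strand, -100 to -1, ETS motif on the opposite strand): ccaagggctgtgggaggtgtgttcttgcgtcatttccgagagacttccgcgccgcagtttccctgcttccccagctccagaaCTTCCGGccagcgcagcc
NDUFA7 (chr19:8321342-8321371, minus strand, 5 to 34, YY1 motif): tcgcggacggAAGATGGCGtccgccacccg

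Total counts ranged from 14915745 to 17411780 per sample, and levels are given as counts per 1000000 (CPM) of the scaled library. The scaling factors of the trimmed mean of M-values (TMM) were 0.944 to 0.952 in Ctrl and 1.05 to 1.06 with WNK463, so that scaling choice moves every comparison between the groups, and the calls that differ under scaling by total counts are given too. The markers of the labelled cell type were present: 9 of 9 myeloid leukemia markers passed the filter on low counts, including *FLT3* at 318 to 381 CPM in the 6 samples. With treatment, in the test described further on, 5 of these 9 rose (55.6%, against 35.5% of all tested genes). Another 3 fell (33.3%, near the 35.3% of all tested genes), among them *MPO*, from 7.47 to 1.31 CPM. Of 9 markers of other blood cells 1 passed, *NKG7*, which rose from 11.7 to 16.1 CPM, and the T-cell marker *CD3D*, the B-cell marker *MS4A1* and the erythroid markers *HBB* and *HBA1* were at 0 in every sample. The part of these shifts in the results on OXPHOS genes was not tested.

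Most OXPHOS subunit transcripts were lower in WNK463-treated cells, and the falls were modest. In the edgeR quasi-likelihood test across the 11973 genes that passed the filter, with Benjamini-Hochberg adjusted p below 0.05 as the call and no limit on the fold change, 52 of 82 tested members fell (63.4%) and 6 rose (7.32%), while 24 were not called. Over all tested genes 35.3% were called lower and 35.5% higher. The median log2 fold change, WNK463 minus Ctrl, was -0.28 over the 82 members and 0.016 over all genes, and 69 members had a value below 0. Values ran from -0.96 for *ATP5MC1* to 1.45 for *UQCRHL*, and the lower and upper quartiles were -0.46 and -0.077. The CPM of the 3 WNK463 samples were all below those of the 3 Ctrl samples for 51 members and all above for 5, against 36.4% and 37.1% of all genes. With a limit of 1 on the absolute log2 fold change, no member was called lower (0 of 82, against 5.55% of all genes) and 1, *UQCRHL*, was called higher (against 9.62%). In these bulk samples, fewer cells expressing a transcript and less of it per cell cannot be told apart.

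**Figure D1:**
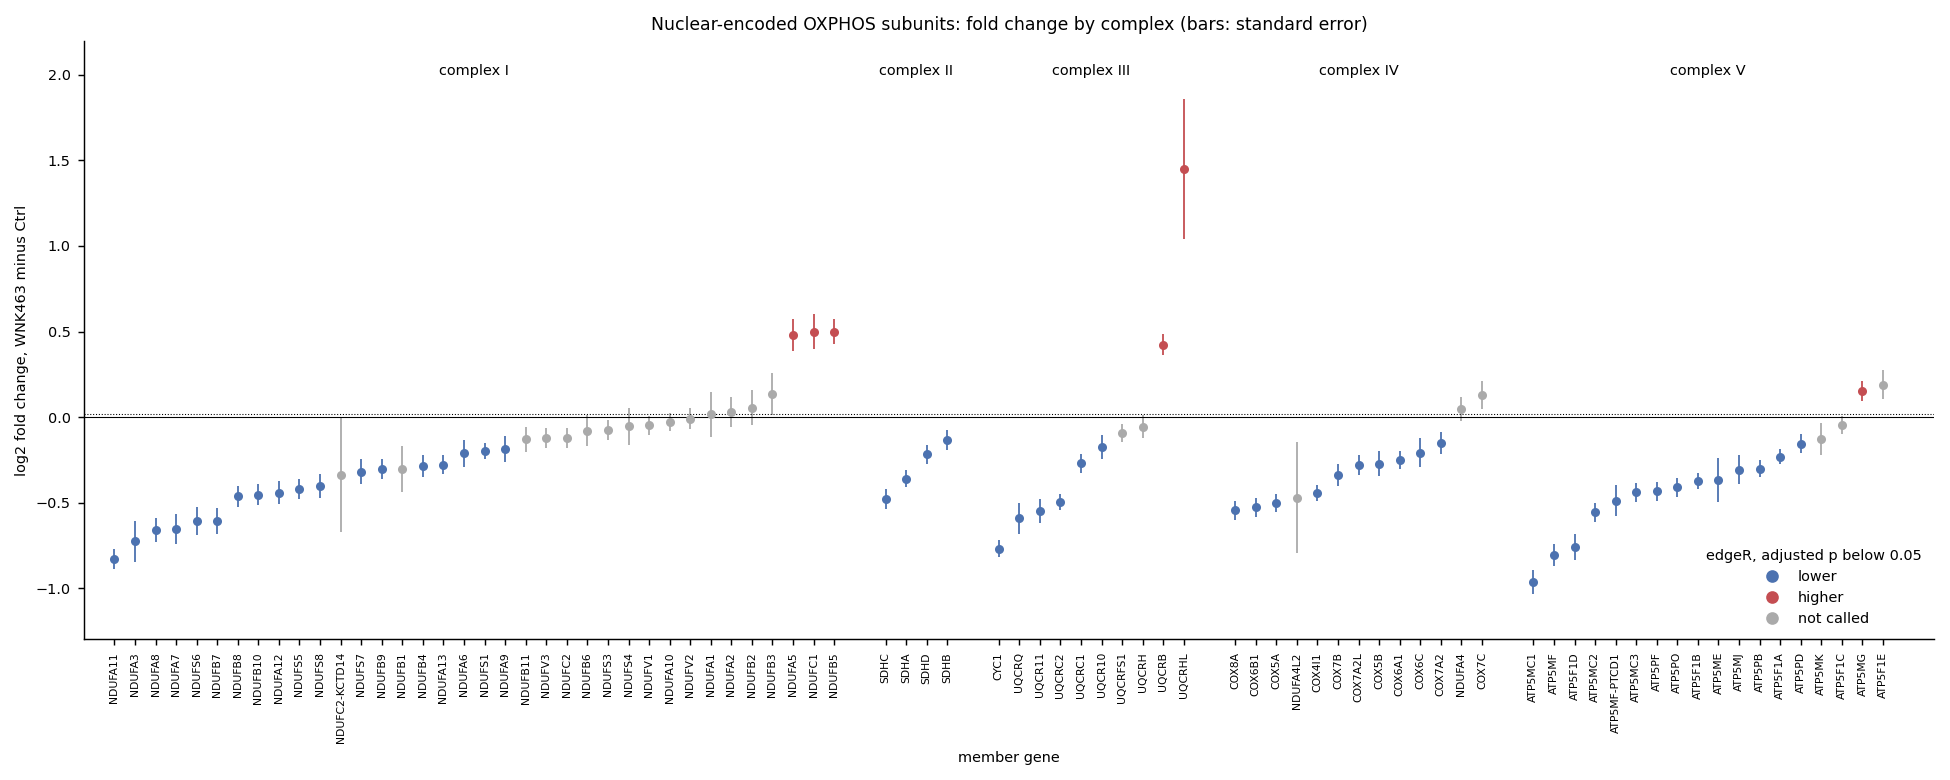
Log2 fold change (WNK463 minus Ctrl, vertical axis) of 81 of the 82 tested members, ordered within complexes I to V, with bars of 1 standard error (n = 3 samples per group); blue was called lower, red higher and grey not called, the solid line marks 0 and the dotted line the median of all genes (0.016). Complex II has blue points only, and the lowest point is *ATP5MC1* at -0.96.

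The number of calls depended on the scaling. Scaled by total counts, 34 members fell and 12 rose, against 26.1% lower and 46.1% higher of all genes, and no member moved from lower to higher. The 18 lower calls lost were *NDUFA6*, *NDUFA9*, *NDUFA13*, *NDUFB4* and *NDUFS1* of complex I, *SDHB* and *SDHD* of complex II, *UQCRC1* and *UQCR10* of complex III, *COX5B*, *COX6A1*, *COX6C*, *COX7A2* and *COX7A2L* of complex IV, and *ATP5F1A*, *ATP5PD*, *ATP5ME* and *ATP5MJ* of complex V. All 6 higher calls were kept, and those gained included *NDUFA10*, *NDUFV2*, *NDUFA4*, *COX7C* and *ATP5F1E*. This scaling moves all genes by about the same amount, and the median over all genes shifted to 0.17 and that of the members to -0.13. The median of the members minus that of all genes was -0.295 under TMM and ranged from -0.368 to -0.209 in the alternative fits. On the authors' TPM values (transcripts scaled for length and to 1000000 per sample), limma on log2(TPM + 1) called 32 members lower and 15 higher, against 23.3% and 43.7% of all genes. Across 15 alternative fits, 30 members were lower in each and 4 were higher in each (*NDUFA5*, *NDUFB5*, *NDUFC1* and *UQCRB*). Leaving out each sample in turn left 44 members lower in all 6 fits. The lower calls that at least 1 such fit lost were *NDUFA6*, *NDUFA9*, *SDHB*, *UQCR10*, *COX6C*, *COX7A2*, *ATP5ME* and *ATP5PD*.

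**Figure D2:**
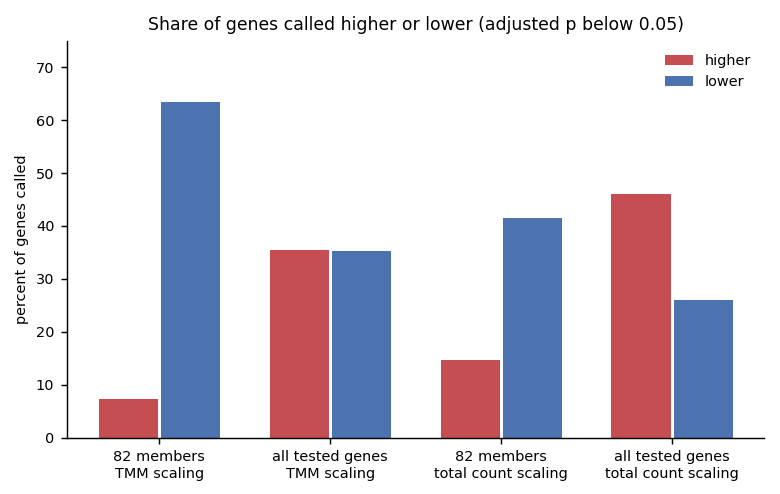
Percent of genes called higher (red) or lower (blue) among the 82 tested members and among all 11973 tested genes, under TMM and under total-count scaling. Under TMM 63.4% of members and 35.3% of all genes were lower; under total counts the share of all genes called lower was 26.1%.

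Expression level and length were distributed unevenly and moved with the fold change. The tested genes were split into 5 equal bins by mean CPM. The median log2 fold change of all genes ran from 0.40 in the lowest bin to -0.14 in the highest, and 42.3% and 51.9% of genes in the 2 highest bins were called lower. These bins held 32 and 24 members, with medians of -0.28 and -0.29, and 23 and 17 of them were called lower. OXPHOS subunits were also short by a length taken from counts per TPM, scaled to the library, as the median over samples. This length did not come from an annotation. By it 65 of 82 members lay in the lowest of 5 bins, where all genes had a median of -0.081 with 40.8% called lower. The members in that bin had a median of -0.30. The part of level and length in the members' falls was not tested.

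**Figure D3:**
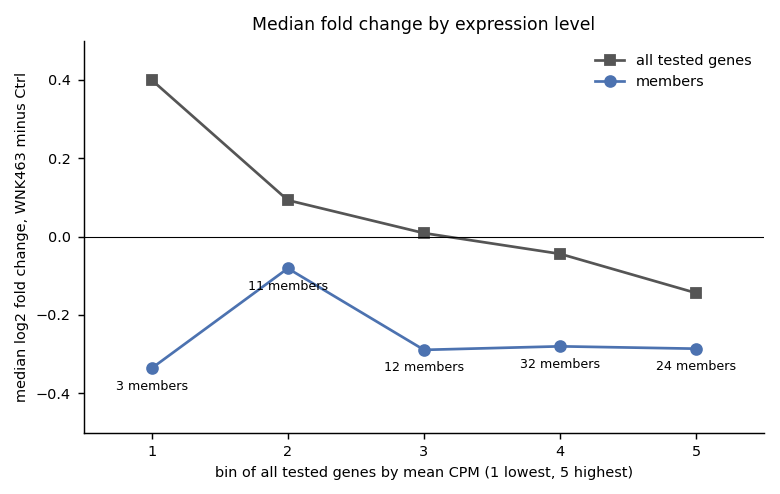
Median log2 fold change (WNK463 minus Ctrl) of all tested genes (grey squares) and of the members (blue circles, with their number) in 5 equal bins of mean CPM from lowest to highest. The grey line falls from 0.40 to -0.14, and the members lie below it in each bin; the lowest bin holds only 3 members.

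Summed over all members, nuclear OXPHOS transcripts took 17397, 16776 and 17103 TPM in the Ctrl samples and 14934, 15937 and 15730 TPM in the WNK463 samples, so the groups did not overlap. The mean share of all TPM was 1.71% in Ctrl and 1.55% with WNK463, 9.11% lower. Summed CPM were 18.0% lower, from 9089 ± 265 to 7449 ± 203 CPM (SD, n = 3). An exact permutation test of 3 against 3 samples cannot give a two-sided p below 0.1, so no test was made of these sums. By complex, the TPM sum was 5.43% lower for complex I, 5.63% for complex II, 11.3% for complex III, 10.5% for complex IV and 11.4% for complex V. The CPM sum was 12.6% lower for complex I, 19.7% for complex II, 18.5% for complex III, 21.0% for complex IV and 20.2% for complex V. The order of the complexes thus differed between TPM and CPM. WNK463 replicate 1 had the lowest sum of all members on both scales.

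Complex I, the NADH dehydrogenase, had subunits that moved in both directions. Of 37 members 18 fell (48.6%, against 35.3% of all tested genes) and 3 rose (8.11%, against 35.5%) under TMM. The median log2 fold change was -0.20. Under total counts 13 fell and 6 rose, against 26.1% and 46.1% of all tested genes. The catalytic core of complex I consists of 7 nuclear subunits that bind NADH, flavin, iron-sulfur clusters and ubiquinone. Of these, 3 fell (*NDUFS1*, *NDUFS7* and *NDUFS8*), which is 42.9%, against 35.3% of all tested genes. *NDUFS8*, an iron-sulfur subunit next to the quinone site, went from 69.9, 59.2 and 61.8 CPM to 47.5, 46.2 and 51.1 CPM (log2 fold change -0.40 with a standard error of 0.070 and adjusted p = 5.9e-05). *NDUFS1*, which carries iron-sulfur clusters of the peripheral arm, went from 206, 194 and 193 CPM to 175, 167 and 175 CPM (log2 fold change -0.20 with a standard error of 0.048 and adjusted p = 0.0014). For both, every treated sample lay below every Ctrl sample. *NDUFS1* had a value of only -0.046 under total-count scaling, yet its TPM went from 110.0 ± 0.248 to 84.9 ± 1.37 TPM (SD, n = 3). *NDUFV1*, which binds NADH and flavin, was not called: the 95% interval of its log2 fold change was -0.15 to 0.056, and the point estimate of -0.049 became 0.10 under total-count scaling.

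The accessory subunits of complex I, which surround the core and stabilize it, ranged from the second largest fall of all members to the largest rises among well-expressed ones. *NDUFA11*, a membrane-arm subunit on chr19:5891276-5904006 (minus strand), read 111, 104 and 115 CPM in the Ctrl samples and 60.3, 60.8 and 65.0 CPM in the WNK463 samples. This was 43.7% lower in the fit (log2 fold change -0.83 with a standard error of 0.058 and adjusted p = 7e-10), with every treated sample far below every Ctrl sample. *NDUFA3*, another membrane-arm subunit, went from 13.6, 11.5 and 13.2 CPM to 7.61, 7.44 and 8.24 CPM (log2 fold change -0.72 with a standard error of 0.120 and adjusted p = 3.4e-05). *NDUFA8*, a subunit facing the intermembrane space whose promoter piece is shown above, went from 36.3, 36.6 and 35.8 CPM to 22.3, 23.1 and 23.4 CPM (log2 fold change -0.66 with a standard error of 0.072 and adjusted p = 2.4e-07). Both fell without overlap of the groups. *NDUFA7*, with the YY1 letters shown, fell from 25.5 ± 1.82 to 16.2 ± 0.214 CPM (SD, n = 3; log2 fold change -0.65), *NDUFS6* fell from 38.8 ± 2.67 to 25.5 ± 2.33 CPM (-0.61) and *NDUFB7* fell from 67.7 ± 3.86 to 44.5 ± 5.13 CPM (-0.60). In all, 8 of 12 NDUFA subunits (66.7%), 5 of 11 NDUFB subunits (45.5%) and 2 of the 6 remaining supernumerary subunits (33.3%) fell. Over all tested genes 35.3% fell, so the last share was near that of all genes.

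In contrast, 3 accessory subunits rose by similar amounts. *NDUFB5*, of the membrane arm, read 78.7, 60.1 and 69.5 CPM in the Ctrl samples and 94.4, 100.1 and 100.4 CPM in the WNK463 samples (log2 fold change 0.50 with a standard error of 0.074 and adjusted p = 1e-05). *NDUFC1*, a small membrane-arm subunit, went from 16.1, 17.5 and 14.6 CPM to 20.8, 21.7 and 25.6 CPM (log2 fold change 0.50 with a standard error of 0.102 and adjusted p = 0.00028). *NDUFA5*, a subunit of the matrix arm, went from 35.9, 38.5 and 47.8 CPM to 54.2, 63.5 and 52.8 CPM (log2 fold change 0.48 with a standard error of 0.093 and adjusted p = 0.00017). In each the lowest treated sample was above the highest Ctrl sample, and TPM rose too, for *NDUFB5* from 115 ± 11.4 to 193 ± 5.89 TPM. The members of complex I that were not called included *NDUFA1*, *NDUFA2*, *NDUFA10*, *NDUFB1*, *NDUFB2*, *NDUFB3*, *NDUFB6*, *NDUFB11*, *NDUFC2*, *NDUFC2-KCTD14*, *NDUFS3*, *NDUFS4*, *NDUFV1*, *NDUFV2* and *NDUFV3*, with log2 fold changes from -0.34 for the read-through gene *NDUFC2-KCTD14* to 0.14 for *NDUFB3*. *NDUFC2-KCTD14* shares exons with *NDUFC2*, so its 2.61 to 3.31 CPM, as group means, are uncertain.

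**Figure D4:**
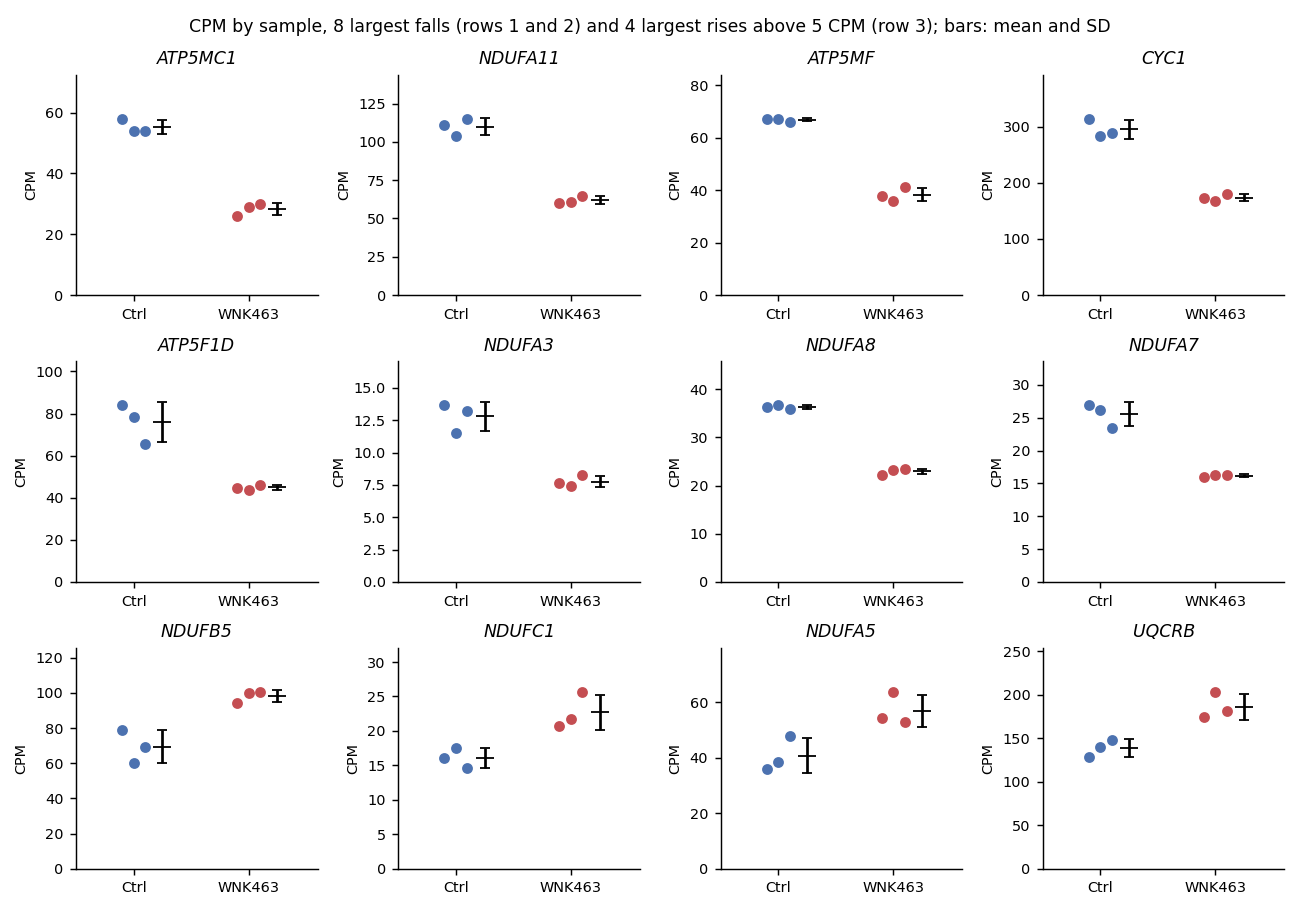
CPM by sample (points; Ctrl blue, WNK463 red) with the mean and SD (bars, n = 3) for the 8 members with the largest falls and the 4 with the largest rises among those above 5 CPM in Ctrl; each vertical axis starts at 0. In no panel do the groups overlap, and *ATP5MC1* falls from 53.9 to 58.0 CPM in Ctrl to 26.1 to 29.9 CPM.

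Complex II, succinate dehydrogenase, links the citric acid cycle to the chain and is the only one encoded wholly in the nucleus. All 4 subunits fell under TMM, against 35.3% of all tested genes, with no overlap of the groups, against 36.4% of all tested genes. However, *SDHD* and *SDHB* were no longer called under total-count scaling, where *SDHB* had a value of 0.017. *SDHC*, a membrane anchor, read 121, 112 and 107 CPM in the Ctrl samples and 78.0, 83.7 and 82.0 CPM in the WNK463 samples (log2 fold change -0.48 with a standard error of 0.058 and adjusted p = 7.9e-07). *SDHA*, the flavoprotein that oxidizes succinate, read 259.9, 248 and 239 CPM in the Ctrl samples and 196, 187 and 198 CPM in the WNK463 samples (log2 fold change -0.36 with a standard error of 0.049 and adjusted p = 3.4e-06). The other anchor, *SDHD*, went from 119, 126 and 126 CPM to 99.2, 111 and 107 CPM, a smaller difference (log2 fold change -0.22 with a standard error of 0.055 and adjusted p = 0.0019). *SDHB*, the iron-sulfur subunit, went from 80.2, 79.0 and 82.7 CPM to 68.7, 75.8 and 75.8 CPM (log2 fold change -0.14 with a standard error of 0.058 and adjusted p = 0.044), and its TPM went the other way, from 151 ± 4.10 to 156 ± 8.44 TPM (SD, n = 3). The membrane anchor *SDHC* and the catalytic *SDHA* were lower under both scalings and in TPM, whereas the calls of *SDHB* and *SDHD* rested on the scaling.

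Complex III, the cytochrome bc1 complex, passes electrons from ubiquinol to cytochrome c. Of its 10 members 6 fell (60.0%, against 35.3% of all tested genes) and 2 rose (20.0%, against 35.5%), with a median of -0.22. Under total counts 4 fell and 2 rose, against 26.1% and 46.1% of all tested genes, with a median of -0.071. *CYC1*, the heme-bearing cytochrome c1, read 315, 283 and 289 CPM in the Ctrl samples and 174, 167 and 180.2 CPM in the WNK463 samples. The fit gave a fall of 41.3% (log2 fold change -0.77 with a standard error of 0.052 and adjusted p = 3.9e-10), and no samples of the groups overlapped. *UQCRC2*, a core subunit, went from 253, 246 and 239 CPM to 169.5, 176 and 178 CPM (log2 fold change -0.50 with a standard error of 0.047 and adjusted p = 3.5e-08). Its partner *UQCRC1* went from 268, 234 and 239.6 CPM to 200.1, 199 and 216 CPM (log2 fold change -0.27 with a standard error of 0.056 and adjusted p = 0.00032), with -0.12 and no call under total counts. *UQCRQ* and *UQCR11*, small subunits of the membrane part, fell from 35.1 ± 2.12 to 23.3 ± 2.86 CPM (log2 fold change -0.59) and from 80.3 ± 3.04 to 54.9 ± 6.27 CPM (-0.55). All these were lower in each treated sample than in each Ctrl sample, unlike *UQCR10*, called lower at -0.17 with overlapping groups. *UQCRFS1*, the Rieske iron-sulfur protein, was not called, with a 95% interval of -0.19 to 0.010. *UQCRB*, which takes part in ubiquinone binding, rose against this trend and read 128, 140.1 and 148 CPM in the Ctrl samples and 174, 203 and 181 CPM in the WNK463 samples (log2 fold change 0.42 with a standard error of 0.063 and adjusted p = 9.4e-06).

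The *UQCRH* pair could not be resolved. *UQCRH* was not called (log2 fold change -0.056, 95% interval -0.19 to 0.079). *UQCRHL* had 6, 6 and 6 counts in Ctrl and 14, 21 and 17 counts with WNK463, from which the count test gave log2 fold change 1.45 with a standard error of 0.412 and adjusted p = 0.0045. Its TPM moved the opposite way, with 1.92, 2.27 and 2.33 TPM in Ctrl and 0.826, 1.201 and 1.05 TPM with WNK463. Counts per 1000000000 counted reads and per TPM, which follow the transcript length behind each TPM, were 150 to 180 in Ctrl and 1070 to 1080 with WNK463 for *UQCRHL*, and 271 to 278 in all samples for *UQCRH*. Its direction therefore depended on the unit. With 98.6% identity of the coding sequences shown above and over 99% of the pair's TPM on *UQCRH*, the rise of *UQCRHL* is uncertain, and with the pair summed 1 member of complex III was called higher.

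Complex IV, cytochrome c oxidase, reduces oxygen to water, and its mtDNA-encoded core is surrounded by nuclear subunits, several with tissue-specific forms. Of 13 tested members 10 fell (76.9%, against 35.3% of all tested genes) and none of the 13 rose, with a median of -0.28. Under total-count scaling 5 fell and 2 rose (*NDUFA4* and *COX7C*), against 26.1% and 46.1% of all tested genes. *COX8A*, a small subunit, read 125, 118 and 120.0 CPM in the Ctrl samples and 84.2, 76.9 and 87.0 CPM in the WNK463 samples (log2 fold change -0.55 with a standard error of 0.057 and adjusted p = 1.2e-07). *COX6B1*, which faces the intermembrane space, went from 105, 99.2 and 102 CPM to 70.2, 67.8 and 74.6 CPM (log2 fold change -0.53 with a standard error of 0.056 and adjusted p = 1.6e-07). *COX5A*, on the matrix side, went from 144, 135 and 131 CPM to 96.1, 94.7 and 97.8 CPM (log2 fold change -0.51 with a standard error of 0.053 and adjusted p = 1.3e-07). In these 3 genes every treated sample was below every Ctrl sample, as it was for *COX4I1*, a regulatory subunit with the highest TPM of the nuclear members of the complex, which fell from 359.9, 344 and 336 CPM to 245, 259.6 and 261 CPM (log2 fold change -0.44). *COX5B* fell by less, from 45.8 ± 3.69 to 37.9 ± 1.15 CPM (log2 fold change -0.27, and -0.12 with no call under total counts).

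Several tissue-specific isoforms of complex IV were not detected at this depth. *COX4I2*, *COX6A2*, *COX7A1*, *COX7B2* and *COX8C*, known from lung, muscle, heart or testis, had 0 counts in every sample, where 3 counts would correspond to 0.172 to 0.201 counts per 1000000, and *COX6B2* had at most 3 counts in any sample. The counterparts *COX6A1* and *COX7B* fell from 117 ± 3.74 to 98.3 ± 0.377 CPM (log2 fold change -0.25, and -0.10 with no call under total counts) and from 67.8 ± 1.80 to 53.6 ± 3.96 CPM (-0.34). *COX7A2* and *COX7A2L*, the latter linked to supercomplexes of the chain, were lower with log2 fold changes of -0.15 and -0.28, the former with overlapping groups, and became 0.001 and -0.13 with no call under total counts. The share of *COX7A2L* in the TPM of these 2 genes was 20.5% ± 0.789 in Ctrl and 19.4% ± 1.14 with WNK463. *NDUFA4*, a complex IV subunit despite its name, was not called at 0.048, nor were *COX7C* at 0.13 and *NDUFA4L2*, which had under 2 CPM in each sample. *COX6C* was lower at -0.21, also with overlapping groups.

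Complex V, the ATP synthase, had the lowest median, -0.37. Of 18 tested members 14 were lower (77.8%, against 35.3% of all tested genes) and 1 higher (5.56%, against 35.5%). Under total counts 10 fell and 2 rose, against 26.1% and 46.1% of all tested genes. *ATP5MC1*, a gene for subunit c, had the largest fall of all members and read 58.0, 54.0 and 53.9 CPM in the Ctrl samples and 26.1, 29.0 and 29.9 CPM in the WNK463 samples. This was 48.7% lower (log2 fold change -0.96 with a standard error of 0.071 and adjusted p = 1.4e-09), and the treated samples were near the middle between 0 and the Ctrl samples. *ATP5MC2* went from 155, 144 and 137 CPM to 95.4, 99.4 and 102 CPM (log2 fold change -0.56 with a standard error of 0.056 and adjusted p = 7.3e-08). *ATP5MC3* went from 206, 184 and 198 CPM to 139, 155 and 140.0 CPM (log2 fold change -0.44 with a standard error of 0.056 and adjusted p = 1.7e-06). All 3 genes for the identical mature subunit fell, and also under total-count scaling. *ATP5MC1* gave 18.0%, 18.4% and 18.4% of their summed TPM in Ctrl and 13.4%, 13.8% and 14.4% with WNK463, without overlap. The share of *ATP5MC2* was 45.2% ± 1.09 in Ctrl and 45.6% ± 1.0 with WNK463, and that of *ATP5MC3* went from 36.6% ± 1.11 to 40.5% ± 1.26 (SD, n = 3), with no test of these shares.

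**Figure D5:**
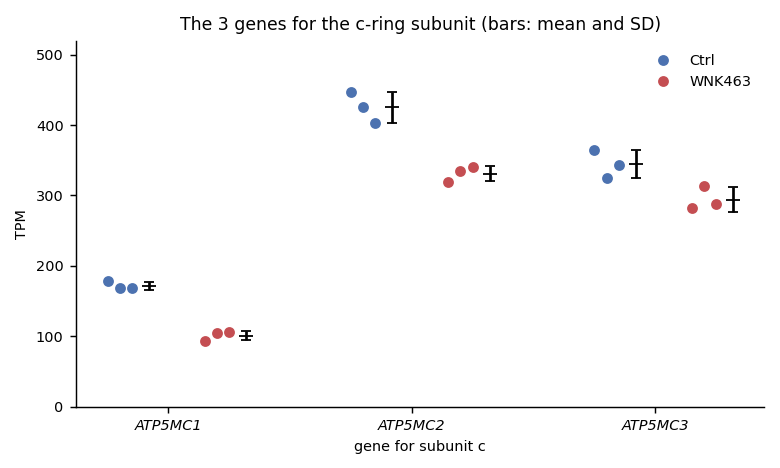
TPM by sample (points; Ctrl blue, WNK463 red) with mean and SD (bars, n = 3) of the 3 genes for subunit c of the ATP synthase. *ATP5MC1* lies at 168 to 178 TPM in Ctrl and 93.0 to 106 TPM with WNK463, and *ATP5MC2* and *ATP5MC3* also lie lower without overlap.

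The 5 genes of the catalytic head of the ATP synthase had a median of -0.23, against -0.56 for the 3 genes of the ring, a difference that was not tested. *ATP5F1B*, the β subunit that makes ATP and the member with the highest TPM, read 1284, 1166 and 1203 CPM in the Ctrl samples and 921, 937 and 964 CPM in the WNK463 samples (log2 fold change -0.37 with a standard error of 0.046 and adjusted p = 1.2e-06). *ATP5F1A*, the α subunit, went from 778, 739.7 and 760.5 CPM to 639.6, 628 and 672 CPM (log2 fold change -0.23 with a standard error of 0.045 and adjusted p = 0.00016). Both were lower in each treated sample, *ATP5F1A* with no call under total counts. *ATP5F1D*, the δ subunit of the central stalk, fell most of the head's genes, from 83.8, 78.5 and 65.6 CPM to 44.8, 43.8 and 46.2 CPM (log2 fold change -0.76 with a standard error of 0.077 and adjusted p = 9.6e-08), while *ATP5F1C*, the γ subunit that turns within the head, was not called (95% interval -0.15 to 0.056), nor was *ATP5F1E*, the ε subunit (0.19, and 0.34 with a call under total counts). All 4 genes of the peripheral stalk, which holds the head still, fell, with log2 fold changes of -0.43 for *ATP5PF*, -0.41 for *ATP5PO*, -0.30 for *ATP5PB* and -0.16 for *ATP5PD*, the last with -0.006 under total counts.

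Among the small membrane subunits of complex V, which take part in dimer formation, *ATP5MF* read 67.2, 67.2 and 66.1 CPM in the Ctrl samples and 37.8, 35.9 and 41.0 CPM in the WNK463 samples. This was the third largest fall of all members (log2 fold change -0.81 with a standard error of 0.064 and adjusted p = 3.8e-09), with no overlap of the groups. The read-through gene *ATP5MF-PTCD1* fell too (-0.49) but can share reads with *ATP5MF*. *ATP5ME* (-0.37) and *ATP5MJ* (-0.31) fell, neither with a call under total counts (-0.22 and -0.15), *ATP5MK* was not called (-0.13), and *ATP5MGL* had 0 counts in every sample. *ATP5MG* was called higher, from 100.3, 94.9 and 97.8 CPM to 99.6, 116 and 109.5 CPM (log2 fold change 0.15 with a standard error of 0.059 and adjusted p = 0.029), with overlapping groups, and only 2 of the 6 fits that left out a sample kept this call.

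Transcripts of the 13 subunits encoded in the mtDNA were described beside the nuclear ones. Under TMM 11 fell (84.6%, against 35.3% of all tested genes) and none of the 13 rose, with a median log2 fold change of -0.21. In 7 of the 13 the treated samples all lay below the Ctrl samples, against 36.4% of all tested genes. *MT-ND1*, *MT-ND2*, *MT-ND4L* and *MT-CO1* were called lower with overlapping groups. The calls of *MT-ND2*, *MT-ND4L* and *MT-CO1* held in 3, 2 and 4 of the 6 fits that left out a sample. Under total counts 4 of 13 fell, against 26.1% of all tested genes, and the median was -0.059. *MT-ND6*, the only subunit gene on the light strand, went from 356, 363 and 320.2 CPM to 217, 193 and 183 CPM (log2 fold change -0.81 with a standard error of 0.062 and adjusted p = 2e-09). *MT-ATP8* went from 95.8, 108 and 80.0 CPM to 68.6, 54.1 and 44.8 CPM (log2 fold change -0.76 with a standard error of 0.115 and adjusted p = 1.3e-05), and *MT-ND5* went from 2668, 2585 and 2466 CPM to 1881, 1592 and 1563 CPM (log2 fold change -0.62 with a standard error of 0.060 and adjusted p = 5.4e-08). These 3 and *MT-CYB* (-0.35) were the 4 called under both scalings. The remaining genes lay between -0.25 for *MT-ATP6* and -0.075 for *MT-ND4*, with *MT-CO3* at -0.21, *MT-CO1* at -0.21, *MT-ND1* at -0.19, *MT-ND3* at -0.16, *MT-ND2* at -0.15, *MT-ND4L* at -0.14 and *MT-CO2* at -0.12, of which *MT-CO2* and *MT-ND4* were not called. *MT-ND4*, *MT-ND4L* and *MT-CO2* had values above 0 under total counts. The TPM sum of the 13 genes was 8.49% of all TPM in Ctrl and 8.42% with WNK463, and WNK463 replicate 1 stood above the other two treated samples (92920 against 80147 and 79413 TPM), while it had the lowest nuclear sum. *MT-ATP8* overlaps *MT-ATP6* and *MT-ND4L* overlaps *MT-ND4*, each pair on the same strand, so how reads were split between these neighbours is uncertain. Whether the counting used strand is not given in the sources used here, so the counts of *MT-ND6*, on the other strand, are uncertain too.

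The genes that serve the complexes were counted by list. Of 60 assembly factors 27 fell (45.0%, against 35.3% of all tested genes) and 14 rose (23.3%, against 35.5%), with a median of -0.15. Under total counts 21 of 60 fell and 24 rose, against 26.1% and 46.1% of all tested genes. The largest falls were *ACAD9*, a complex I assembly factor (from 89.0, 90.1 and 85.6 CPM to 30.0, 29.8 and 30.8 CPM, log2 fold change -1.55 with a standard error of 0.060 and adjusted p = 3e-13), and *NDUFAF3*, which acts in the same pathway (from 37.9 ± 0.646 to 14.6 ± 1.87 CPM, log2 fold change -1.37 with a standard error of 0.090 and adjusted p = 2.6e-10). The largest rises were *FMC1*, for the ATP synthase (log2 fold change 1.13), and *NDUFAF5*, for complex I (0.83). Past a log2 fold change of 1, 4 of the 60 fell, near the 5.55% of all tested genes that did. Of 23 genes for mtDNA maintenance and expression 15 fell (65.2%, against 35.3% of all tested genes) and 3 rose (13.0%, against 35.5%), with a median of -0.29. Under total counts 11 of 23 fell and 3 rose, against 26.1% and 46.1% of all tested genes. The helicase *TWNK* (-0.81) and the single-stranded DNA-binding protein *SSBP1* (-0.56) were lowest, and the polymerase subunit *POLG2* (0.50) and *MTERF4* (0.21) highest.

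Regulators of OXPHOS genes were read in the same fit, where 6 of 11 tested fell (54.5%, against 35.3% of all tested genes) and 1 rose (9.09%, against 35.5%). Under total counts 4 of 11 fell and 3 rose, against 26.1% and 46.1% of all tested genes. The median of the regulators was -0.15 under TMM and 0.005 under total counts. *PPRC1*, a coactivator of the PGC-1 family, went from 128, 132 and 126 CPM to 79.4, 73.8 and 73.4 CPM (log2 fold change -0.77 with a standard error of 0.053 and adjusted p = 6.1e-10). *GABPB2* (-0.58) and *GABPB1* (-0.49), which pair with GABPA, fell, whereas *GABPA* itself was not called (-0.096). *MYC* (-0.27), *PPARGC1B* (-0.15) and *CREB1* (-0.15) were lower by smaller amounts. Under total counts *PPARGC1B* was at -0.001 and *CREB1* at 0.005, neither called, and of the 6 fits that left out a sample 3 kept the call of *PPARGC1B* and 1 that of *CREB1*, whose groups overlapped. *TFEB* rose (0.33), *NRF1* (0.039), *YY1* (0.073) and *ESRRA* (0.11) were not called, *YY1* and *ESRRA* with higher calls under total counts (0.23 and 0.27), and *PPARGC1A* was below the filter. Among mobile carriers and ubiquinone synthesis genes 6 of 14 fell (42.9%, against 35.3% of all tested genes) and 3 rose (21.4%, against 35.5%). Under total counts 4 of 14 fell and 3 rose, against 26.1% and 46.1% of all tested genes. *CYCS*, cytochrome c, went from 254, 254 and 267 CPM to 159, 178 and 167 CPM (log2 fold change -0.62 with a standard error of 0.051 and adjusted p = 5.5e-09). *COQ3* had the largest fall (-1.36), and *COQ10A* (1.11) and *COQ10B* (1.03) rose.

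Other routes into the chain and the exchange of ATP were counted the same way. Of 8 tested genes for other electron entry 3 fell (37.5%, near the 35.3% of all tested genes), led by *GPD2* (-0.95) and *DHODH* (-0.69). The transhydrogenase *NNT* (0.32) was the only 1 that rose (12.5%, against 35.5% of all tested genes). Under total counts 3 of 8 fell and 3 rose, against 26.1% and 46.1% of all tested genes. Of 9 genes for ATP exchange and its brakes 7 fell (77.8%, against 35.3% of all tested genes) and none of the 9 rose. Under total counts 5 of 9 fell and 1 rose, against 26.1% and 46.1% of all tested genes. *UCP2*, an inner-membrane carrier of the uncoupling protein family, read 174, 161 and 150.1 CPM in the Ctrl samples and 54.2, 52.1 and 52.5 CPM in the WNK463 samples (log2 fold change -1.61 with a standard error of 0.061 and adjusted p = 2.3e-13). The ADP/ATP carrier *SLC25A6* went from 336, 306 and 306 CPM to 159, 161 and 164 CPM (log2 fold change -0.97 with a standard error of 0.050 and adjusted p = 1.2e-11). In both, treated samples were far below the Ctrl samples. The related carrier *SLC25A5* was not called (-0.038) but was called higher under total counts (0.11).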

How the data were processed

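RNA of 3 Ctrl and 3 WNK463 samples of MV4-11 cells was sequenced from captured mRNA. The deposited table holds estimated counts per gene as whole numbers, without normalization, and TPM, scaled by the authors for length and to 1000000 per sample. In 62 values a count of 0 stood beside a TPM above 0, so the deposited counts were taken as rounded estimates. The submitters' processing notes name fastp, Bowtie2, HISAT2, StringTie, RSEM, DESeq2 and edgeR on GRCh38, without roles; the annotation release is not given in the sources used here. The authors' own comparison columns (group means in TPM, a log2 fold change, a p-value and its adjusted form) were not used.

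Groups came from the labels. Counts were tested with edgeR 4.0.16 in R 4.3.3 (TMM, filterByExpr, quasi-likelihood test, no block, all 6 samples), with Benjamini-Hochberg adjustment over 11973 genes. A standard error is the absolute log2 fold change over the square root of F. CPM use TMM library sizes. The common biological coefficient of variation was 5.21%. Libraries of a group differed by more than sampling noise (chi-square per degree of freedom 2.641 to 7.13). A floor of 3 counts is given for genes not detected, for counting error only, and filterByExpr alone set which genes were tested. On simulated counts of these genes and libraries for WNK463 against Ctrl, edgeR recovered 98 of 100 genes changed by a log2 fold of 0.5 and 100 of 100 changed by 1, with 9 false calls among 11946 genes. DESeq2 recovered 88 and 100, with 5 false calls among 15437 genes, and limma 96 and 100, with 12 among 11342. Only genes with a mean count of at least 100 were changed, as many up as down, with the same dispersion for all genes. Folds below 0.5 were not simulated. Far fewer genes changed than in the data, so the simulation does not address the choice of scaling.

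Alternatives were DESeq2 1.42.0, total-count scaling, other filters, limma 3.58.1 on log2(TPM + 1) and log2(TPM + 0.1), a fold limit, the replicate number as a block, each sample left out, and overlapping gene pairs summed. *SLC25A6*, listed in duplicate with equal counts, was counted once. Coding sequences came from GENCODE 29 (GRCh38) and promoters from RefSeq (GRCh38.p14).

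The members and lists were chosen with earlier results of these data known. Named genes were, per complex, the 3 largest rises and the 3 largest falls among called members without overlap, core subunits, isoform sets, members not called or below the filter, and in each other list the 2 largest changes per direction, with every regulator and mtDNA gene. Further members were named after their values were seen. Results for some genes are not reported here.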

Additional observations from a re-analysis of the deposited data

How the results depend on the processing

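Leaving out each sample gave 45 to 52 members lower and 5 to 7 higher (45 and 7 without WNK463 replicate 1), 0 to 1 higher in complex IV (1 without Ctrl replicate 3), 0 to 2 higher in complex V, 1 to 3 higher for mtDNA expression (1 without Ctrl replicate 2) and 0 to 1 for regulators (0 without Ctrl replicate 2). The same replicate numbers did not vary together (correlations of 0.019, -0.0071 and -0.048), and with the replicate block 52 members were lower and 6 higher, 51 of the lower ones shared. DESeq2 called 47 members lower and 5 higher, with 0 higher in complex V and 1 for mtDNA expression. With at least 10 counts in every sample complex III had 1 and complex V 2 members higher, and with pairs summed complex III had 1.

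Total-count scaling gave 34 members lower and 12 higher, a median of -0.13, complex I 6 higher, complex II 2 lower, complex IV 5 lower and 2 higher, complex V 2 higher, mtDNA subunits 4 lower, assembly factors 24 higher, regulators 3 higher, electron entry 3 higher and ATP exchange 1 higher. The limma fits gave 32 lower and 15 higher, a median of -0.099 (-0.11 without the filter), complex I 9 higher, complex II 2 lower, complex III 1 higher, complex IV 4 lower and 2 higher, complex V 9 lower and 3 higher, mtDNA subunits 4 lower (3 without the filter), assembly factors 17 lower (15), mtDNA expression 7 lower (6), regulators 3 lower and 3 higher, electron entry 4 higher, ATP exchange 1 higher, and 2658 of all genes lower (2646 with a pseudocount of 0.1 and 2635 without the filter). With a log2 fold limit of 1, no member was lower (0 in complexes I to V) and 1 was higher (1 in complex III, 0 in complexes I and V), beside 1152 genes higher and 665 lower in all, 0 mtDNA subunits lower, 4 assembly factors lower and 1 higher, 0 mtDNA expression genes in either direction, 0 regulators, 1 carrier or ubiquinone gene lower, 0 electron entry genes and 1 ATP exchange gene lower.

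Directions turned mostly for genes near 0. Under total counts, values became positive for *NDUFV1* (0.10), *SDHB* (0.017), *UQCRFS1* (0.060), *COX7A2* (0.001), *UQCRH* (0.096), *NDUFB11* (0.022), *NDUFV3* (0.029), *NDUFC2* (0.031), *NDUFB6* (0.071), *NDUFS3* (0.075), *NDUFS4* (0.099), *NDUFA10* (0.12), *NDUFV2* (0.14), *ATP5MK* (0.025), *ATP5F1C* (0.11), *GABPA* (0.055), *CREB1* (0.005), *MT-ND4* (0.076), *MT-ND4L* (0.013) and *MT-CO2* (0.034). In limma on log2(TPM + 1), with and without the filter, they did for *NDUFV1* (0.16), *SDHB* (0.044), *UQCRFS1* (0.10), *COX7A2* (0.037), *UQCRH* (0.12), *NDUFB11* (0.027), *NDUFV3* (0.066), *NDUFC2* (0.028), *NDUFS3* (0.11), *NDUFS4* (0.14), *NDUFA10* (0.12), *NDUFV2* (0.18), *ATP5MK* (0.062), *ATP5F1C* (0.15), *PPARGC1B* (0.052), *GABPA* (0.097), *MT-ND1* (0.005), *MT-ND2* (0.033), *MT-ND3* (0.032), *MT-ND4* (0.12), *MT-ND4L* (0.053) and *MT-CO2* (0.074), and *UQCRHL* fell (-0.65). With a pseudocount of 0.1 these were the same to 0.01 except *NDUFV3* (0.068), *PPARGC1B* (0.057) and *UQCRHL* (-1.02). With 10 counts in every sample *NDUFV2* was 0.006. With 1 sample left out, values that changed sign in at least 1 fit ranged from -0.008 to 0.11 for *NDUFA4*, -0.11 to 0.13 for *NDUFA1*, -0.025 to 0.083 for *NDUFA2*, -0.043 to 0.17 for *NDUFB2*, -0.050 to 0.24 for *NDUFB3*, -0.039 to 0.081 for *NRF1*, -0.15 to 0.054 for *NDUFS4*, -0.042 to 0.024 for *NDUFV2*, -0.14 to 0.023 for *UQCRH* and -0.60 to 0.046 for *NDUFC2-KCTD14*. The cause of these changes was not tested. Of the values for single genes, 105 changed direction, 1224 kept their direction and side of the threshold, 93 kept the direction and lost the call and 45 gained one. Of the counts and medians, 360 stayed within 1.5 times the reported count or within 1 SD of the reported median, and 103 moved further. Depth limits what can be said of *UQCRHL*, *NDUFA4L2*, *COX6B2* and the isoforms at 0 counts.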
